A study of Homo sapiens with 6 samples.

Results

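The miRNAs of the miR-193 and miR-365 clusters were followed in K562 cells, a human erythroleukaemia line, by small RNA sequencing. The 7 members were taken by name from a table of 2656 mature miRNAs. They are hsa-miR-193a-5p, hsa-miR-193a-3p and hsa-miR-365b-5p of the cluster on chromosome 17, hsa-miR-193b-5p, hsa-miR-193b-3p and hsa-miR-365a-5p of the cluster on chromosome 16, and hsa-miR-365a-3p, which hairpins of both clusters can make. Azacitidine-sensitive K562 cells (3 libraries) were compared with K562 cells made resistant by months of growth in rising azacitidine doses (3 libraries), all in the same medium with serum and antibiotics. Azacitidine is a cytidine analogue that traps DNA methyltransferases. Every library name ends in NT, letters that the labels leave unexplained, and the presence of drug at harvest is not given. The libraries of each form are called biological replicates, but no independent selections of resistant cells are named, so the resistant form stands for 1 selected population as far as the labels go and p-values measure only the spread between these libraries.

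A miRNA hairpin is cut by Drosha and Dicer into a duplex whose arms are named 5p and 3p, and the arm held by Argonaute pairs with target transcripts mainly through its seed, bases 2 to 8. The clusters are copies of each other, each with a miR-193 and a miR-365 hairpin. miR-193a-3p and miR-193b-3p are known to repress KIT, the stem cell factor receptor, MCL1, an anti-apoptotic protein, and CCND1, cyclin D1. miR-193b has been described as a brake on growth of blood stem cells and as a tumour suppressor in acute myeloid leukaemia, where the miR-193a gene has been reported as silenced by DNA methylation. miR-193b and miR-365 have also been reported to take part in brown fat differentiation.

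The mature sequences of all members (RefSeq, GRCh38.p14) are shown because they decide which reads can be told apart between the clusters. Capitals mark the seed.
miR-193a-5p: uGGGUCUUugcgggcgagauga
miR-193b-5p: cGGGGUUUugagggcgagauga
miR-193a-3p: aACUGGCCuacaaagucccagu
miR-193b-3p: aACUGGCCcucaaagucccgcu
miR-365b-5p: aGGGACUUucaggggcagcugu
miR-365a-5p: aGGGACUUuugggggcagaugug
miR-365a-3p: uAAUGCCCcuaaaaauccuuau
The 3p arms of miR-193a and miR-193b have the same seed and differ outside it, at U9C, A10U, A20G and G21C (miR-193a base, position from 1 at the 5′ end, miR-193b base). Their 5p arms differ at U1C, U5G, C6U and C11A, with 2 of these 4 positions inside the seed. The 5p arms of miR-365a and miR-365b share a seed and differ at U10C, G11A and A19C, besides a length of 23 against 22 bases. Each of these pairs can therefore be separated in principle by its sequence. The miR-365a-3p and miR-365b-3p sequences are identical over all 22 bases. Their rows in the table were also identical in every library, so the same reads appear to have been entered under both names, and these reads were used here once, as miR-365a-3p. No miRNA outside the clusters had the seed of a member in the RefSeq table.

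All hairpins lie on plus strands. Capitals mark the mature arms in the hairpins of miR-193a and miR-193b, which carry the contrast between the clusters described below.
MIR193A: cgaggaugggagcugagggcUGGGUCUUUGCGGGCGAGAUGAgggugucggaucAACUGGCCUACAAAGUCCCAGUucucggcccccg
MIR193B: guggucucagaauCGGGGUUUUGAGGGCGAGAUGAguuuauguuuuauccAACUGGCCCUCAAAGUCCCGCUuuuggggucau
MIR193A spans chr17:31559996-31560083, in no annotated host gene of GENCODE release 29, and its 88 bases hold 6 CpG dinucleotides. As many or more were found in 10.05% of the 1562 hairpins in the RefSeq table. MIR365B follows at chr17:31575411-31575521, 15327 bases further on, and its end overlaps an exon of the long non-coding RNA AC003101.1. MIR193B spans chr16:14303967-14304049 and holds 3 CpG dinucleotides in 83 bases, with as many or more in 25.03% of these hairpins. MIR365A lies 5235 bases beyond it at chr16:14309285-14309371. Both are intronic in the long non-coding RNA gene MIR193BHG. The other miRNAs with a hairpin within 500 kb were both arms of MIR4724, MIR4725 and MIR4733, all on chromosome 17. miR-4724 and miR-4725 had 0 counts in all 6 libraries, and miR-4733 arms had 0 to 10 counts.

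Library totals ran from 3291500 counts in resistant replicate 3 to 12563945 in sensitive replicate 1, and the filter on low counts kept 768 miRNAs for testing. Levels are given as CPM, counts brought to a common library size with trimmed mean of M values (TMM) factors. Resistant replicate 3 stood apart. Its log2 CPM correlated with those of resistant replicates 1 and 2 at Pearson r = 0.875 and 0.864 across tested miRNAs, against 0.978 to 0.995 for all other pairs within a group. Annotations that resemble fragments of other RNAs, a list of 14 with 12 in the table, held 4.96% of its counts and 1.00% to 1.69% of the counts elsewhere. The changes of tested miRNAs and the ratios below are therefore also given without it. The labels give the cell type as myeloblast, and all 6 erythroid and blood miRNAs on another list were found in every library, with a summed 15518 to 17130 CPM in sensitive and 19697 to 64668 CPM in resistant libraries. The higher sum came from miR-486-5p, with means of 5677 CPM in sensitive and 28668 CPM in resistant libraries. Its log2 fold change was 2.34, and 1.05 without resistant replicate 3. The others on that list had -0.94 to -0.0016, and -0.49 to 0.43 without that library. Of 16 miRNAs typical of other cell types, 3 to 7 were at 0 in a given library, among them miR-214-3p in all, and their sum was 39020 to 58142 CPM in sensitive and 9994 to 27900 CPM in resistant libraries. Most of that sum was miR-126-3p, and the part of these markers in the results below was not tested.

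The clusters differed in level and in arm use (plot of levels by library). In sensitive cells the cluster on chromosome 16 gave 62.8, 68.7 and 54.8 CPM over its 3 own members, against 1.25, 0.613 and 1.66 CPM for the 3 own members of the cluster on chromosome 17. In resistant replicates 1 to 3 these sums were 89.2, 71.7 and 235 CPM for chromosome 16 and 7.33, 5.51 and 46.7 CPM for chromosome 17. Of the reads that belong to 1 cluster, most were thus from chromosome 16 in every library. In sensitive cells miR-193b-3p (51.1 ± 8.90 CPM) and miR-365a-3p (49.4 ± 7.996 CPM) led and did not differ beyond their spread (SD, n = 3 each). miR-365a-5p (7.46 ± 1.65), miR-193b-5p (3.49 ± 0.661) and miR-193a-5p (1.01 ± 0.572 CPM) followed, each separated from its neighbours by more than the SDs. miR-193a-3p and miR-365b-5p were near the limit of detection. In resistant cells the order of means was miR-193b-3p, miR-365a-3p, miR-365a-5p, miR-193a-5p and miR-193b-5p, and neighbours in it overlapped. For miR-365a-3p and miR-365a-5p the overlap came from resistant replicate 3 alone (23.2 against 64.8 CPM), since they had 63.8 and 46.2 against 16.9 and 11.4 CPM in resistant replicates 1 and 2. The overlap of miR-365a-5p with miR-193a-5p also came from resistant replicate 3 alone. There miR-193a-5p had 45.9 CPM, against 6.51 and 5.13 CPM in resistant replicates 1 and 2. The members are 22 or 23 bases long, and ligation preferences of single sequences enter any comparison of levels between them.

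**Figure D1:**
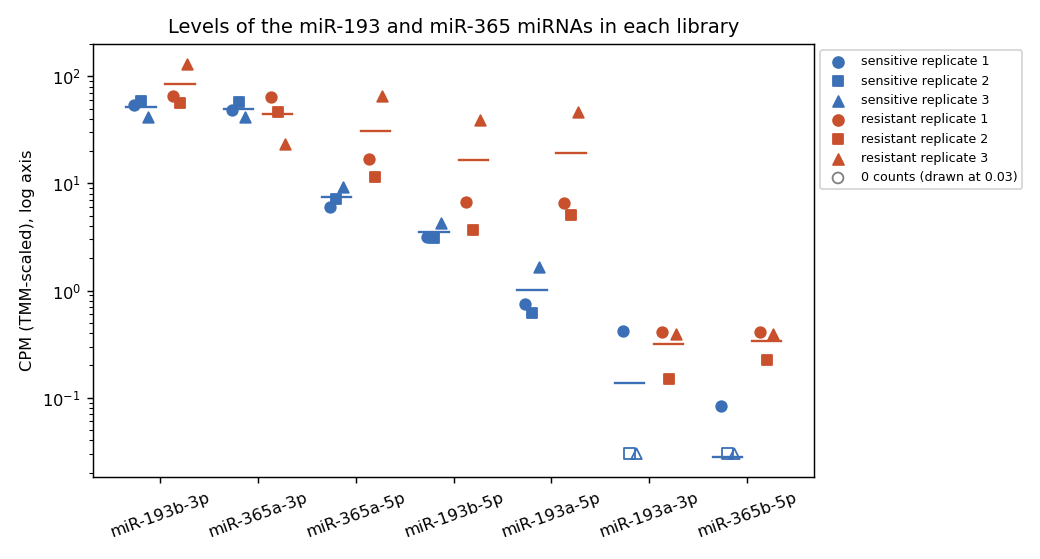
CPM of each member (log axis) in the 3 sensitive (blue) and 3 resistant (orange) libraries, with symbols for replicates and lines for group means; open symbols mark 0 counts and are drawn at 0.03. miR-193b-3p and miR-365a-3p are the highest in sensitive cells. Resistant replicate 3 is above the other resistant libraries for miR-193a-5p, miR-193b-5p, miR-365a-5p and miR-193b-3p but below them for miR-365a-3p.

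With all 6 libraries 0 of the 5 tested members passed edgeR's quasi-likelihood test at an adjusted p of 0.05, in a table where 4.17% of tested miRNAs did (2.08% higher and 2.08% lower in resistant cells). At an unadjusted p under 0.05, 3 of the 5 were higher, against 16.7% of tested miRNAs, and 0 were lower, against 10% of tested miRNAs. DESeq2 called the same 3 members higher, miR-193a-5p, miR-193b-5p and miR-365a-5p, where it called 12.8% of tested miRNAs higher, and limma-voom called 0 members and 2.73% of tested miRNAs higher. Without resistant replicate 3, 2 of the 5 tested members rose in edgeR, miR-193a-5p and miR-365a-5p, and 0 fell, while 13.7% of 822 tested miRNAs rose and 14.4% fell. The median log2 fold change of the 5 tested members was 2.04, and 0.64 without resistant replicate 3, beside -0.11 and 0.036 over all tested miRNAs. In the fit with all 6 libraries miR-193a-5p entered the test through the resistant libraries, where it was high. Its part in the counts of higher members and in the median was therefore not free of the filter. With other scalings the median of all tested was -0.0062 (RLE factors) and 0.087 (library totals).

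hsa-miR-193a-5p, the arm opposite the KIT-directed miR-193a-3p, showed the largest difference among the tested members. It had 9, 6 and 9 counts in sensitive and 64, 68 and 117 counts in resistant replicates 1 to 3, or 0.749, 0.613 and 1.66 CPM against 6.51, 5.13 and 45.9 CPM. The groups did not overlap, which was so with resistant cells higher for 18.9% of tested miRNAs. All resistant libraries were above the highest sensitive library, and resistant replicate 3 was far above the other resistant libraries. The log2 fold change was 4.26 (SE 1.02, edgeR adjusted p = 0.0581), a 19.2-fold difference that missed the threshold. Without resistant replicate 3 it passed as a 6.48-fold rise (log2 fold change 2.70, SE 0.43, edgeR adjusted p = 0.000748). Leaving out resistant replicate 2 instead also gave a call (5.04, SE 0.98, edgeR adjusted p = 0.0364), while leaving out any other single library did not. Over the 13 alternatives in which it was tested the edgeR, DESeq2 or limma adjusted p ran from 5.90e-07 to 0.334. It reached the filter's 1.08 CPM of unscaled library total in 1 sensitive and all 3 resistant libraries, so that it entered the test through the group where it was high.

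The same hairpin's other arm, miR-193a-3p, had 5, 0 and 0 counts in sensitive and 4, 2 and 1 counts in resistant replicates 1 to 3. It did not pass the filter on low counts, and its levels overlapped between the groups. A count of 0 allows up to 0.306 CPM in sensitive replicate 2 and 0.555 CPM in sensitive replicate 3 (3 counts). In an edgeR fit with no filter its log2 fold change was 0.75 (SE 1.32, adjusted p = 0.755), so a difference was not detectable at this depth. The 3p arm made up 5.88%, 2.86% and 0.847% of the miR-193a counts in the resistant libraries, in replicate order (exact binomial 95% bounds of 1.63% to 14.4%, 0.348% to 9.94% and 0.0215% to 4.63%). In sensitive cells it was 5 of 14, 0 of 6 and 0 of 9 counts, too few to compare. The reads of the chromosome 17 hairpin in resistant cells were thus mostly of the 5p arm.

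hsa-miR-365b-5p is the chromosome 17 product that tells the MIR365B hairpin from MIR365A. It had 1, 0 and 0 counts in sensitive and 4, 3 and 1 counts in resistant replicates 1 to 3, too few to be tested with the filter. Without a filter its edgeR log2 fold change was 2.76 (SE 1.59, adjusted p = 0.336). It made up 1.37% (exact 95% interval 0.0347% to 7.40%) of the miR-365 5p counts in sensitive replicate 1. In sensitive replicates 2 and 3 it had 0 of 70 and 0 of 50 counts. With 3 counts in place of 0 these would be 4.29% and 6%, and the exact 95% upper bounds were 5.13% and 7.11%. The share was 2.35%, 1.95% and 0.602% in the resistant libraries, in replicate order (exact binomial 95% bounds of 0.645% to 5.91%, 0.404% to 5.59% and 0.0153% to 3.31%). By this product, 5p reads of miR-365 came nearly all from chromosome 16 in each library. Whether the same holds for the shared 3p reads was not measured.

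On chromosome 16, miR-193b-3p, the abundant arm with the KIT-, MCL1- and CCND1-directed seed, did not pass. It had 53.7, 58.5 and 41.3 CPM in sensitive and 65.6, 56.6 and 131 CPM in resistant replicates 1 to 3. Resistant replicates 1 and 2 were close to the sensitive libraries and resistant replicate 3 was above all others. The log2 fold change was 0.72 (SE 0.46, edgeR adjusted p = 0.329), and 0.31 (SE 0.25, edgeR adjusted p = 0.401) without resistant replicate 3. miR-193a-3p made up 0.769% of the summed 3p counts of miR-193a and miR-193b in sensitive replicate 1 (exact 95% interval 0.250% to 1.79%) and 0.266% to 0.616% in the resistant libraries. In sensitive replicates 2 and 3 it had 0 of 573 and 0 of 223 counts. With 3 counts in place of 0 these would be 0.524% and 1.35%, and the exact 95% upper bounds were 0.642% and 1.64%. The shared seed was thus represented almost wholly by miR-193b-3p.

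The opposite arm, miR-193b-5p, had 3.16, 3.06 and 4.25 CPM in sensitive and 6.72, 3.70 and 38.9 CPM in resistant replicates 1 to 3. Resistant replicate 2 lay below sensitive replicate 3, so the groups overlapped. The log2 fold change of 2.19 (SE 0.87, edgeR adjusted p = 0.166) became 0.64 (SE 0.36, edgeR adjusted p = 0.211) without resistant replicate 3, and the fold went from 4.57 to 1.55. The size of this difference thus rested mainly on 1 library.

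hsa-miR-365a-5p, made by MIR365A alone, had 5.99, 7.15 and 9.25 CPM in sensitive and 16.9, 11.4 and 64.8 CPM in resistant replicates 1 to 3. The groups did not overlap (resistant higher for 18.9% of tested miRNAs). Its log2 fold change was 2.04 (SE 0.699, edgeR adjusted p = 0.134). Without resistant replicate 3 it passed as a 1.98-fold rise (log2 fold change 0.99, SE 0.30, edgeR adjusted p = 0.0285).

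hsa-miR-365a-3p, reported to repress CCND1 and IL6, was the member with the smallest difference. It had 48.8, 57.6 and 41.6 CPM in sensitive and 63.8, 46.2 and 23.2 CPM in resistant replicates 1 to 3. Resistant replicate 3 was the lowest library here, where it was the highest for every other tested member. The log2 fold change was -0.15 (SE 0.47, edgeR adjusted p = 0.829), and 0.21 (SE 0.26, edgeR adjusted p = 0.602) without that library, 0.094 with library totals and -0.077 with RLE factors.

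**Figure D2:**
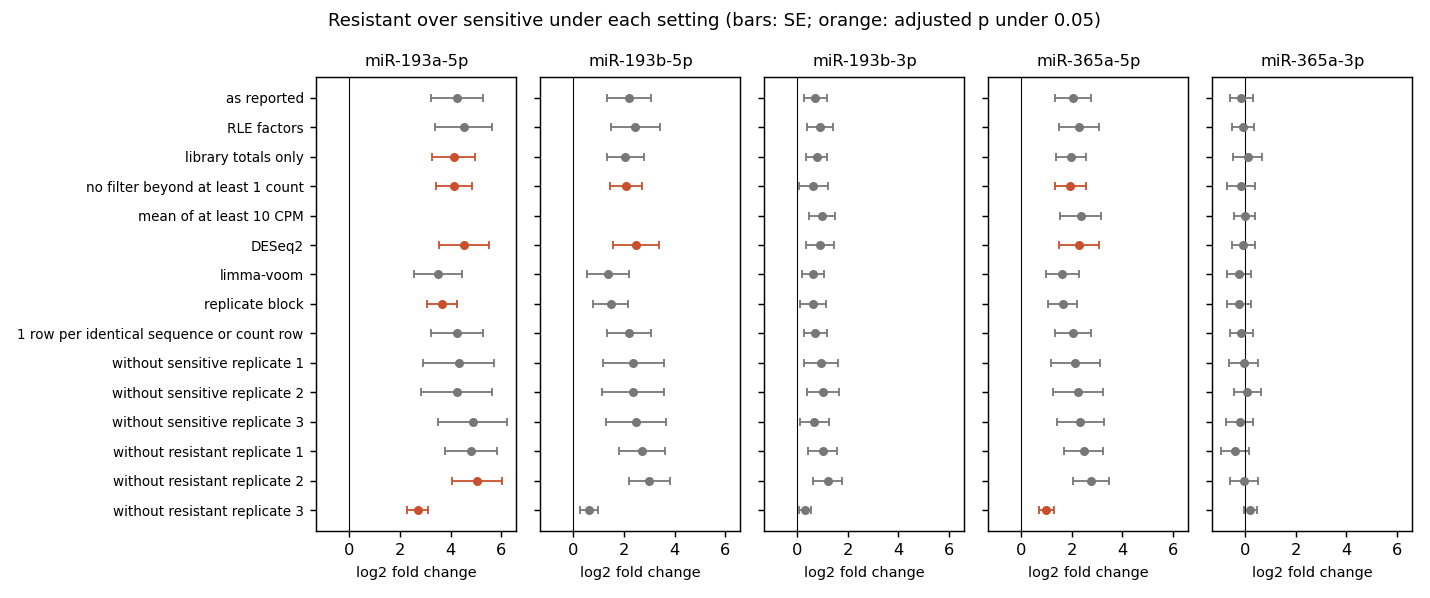
Log2 fold change, resistant over sensitive (points; bars are SE), of the 5 tested members under the reported and 14 alternative settings, with an adjusted p under 0.05 in orange. Values of miR-193a-5p stay between 2.70 and 5.04, those of miR-365a-3p lie on both sides of 0, and the last line, without resistant replicate 3, has the smallest values for the other members.

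The members differed in how far resistant replicate 3 lay from the other resistant libraries, and their GC content is given beside it. The deviation of that library from the mean of resistant replicates 1 and 2 was 2.94 and 2.91 (log2 CPM) for miR-193a-5p and miR-193b-5p, which both have 59.1% GC. It was 2.20 for miR-365a-5p (56.5% GC), 1.10 for miR-193b-3p (59.1% GC) and -1.22 for miR-365a-3p (31.8% GC). Across 677 tested miRNAs with a RefSeq mature sequence, the deviation rose with GC content (Spearman's rho 0.715, a description, since miRNAs of a library are not independent), with a median GC content of 47.8% and a median deviation of -0.28. The part of GC content and of fragment-like reads in the values of the members was not tested.

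**Figure D3:**
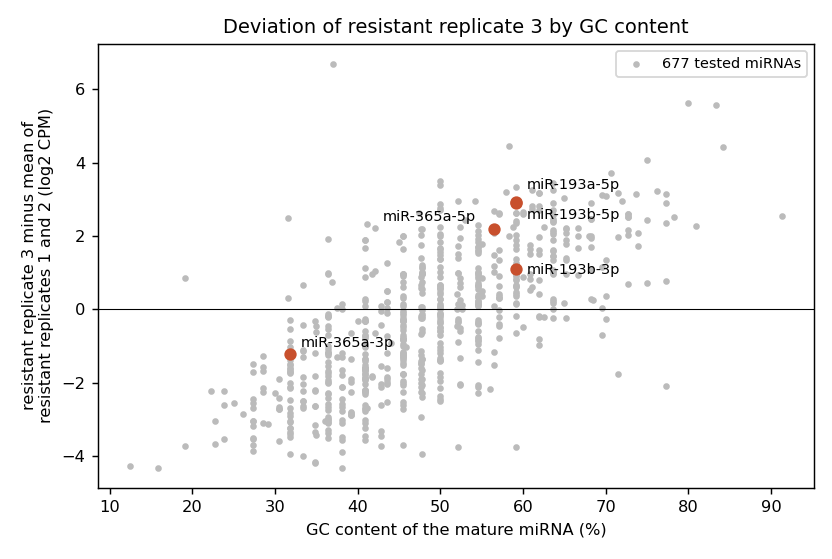
Deviation of resistant replicate 3 from the mean of resistant replicates 1 and 2 (log2 CPM) against GC content of the mature miRNA (percent) for 677 tested miRNAs (grey) and the 5 tested members (orange). miR-193a-5p and miR-193b-5p coincide at 59.1% GC near 2.9, and miR-365a-3p lies at 31.8% GC and -1.22.

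Ratios of members inside a library are free of the scaling and set either the clusters or different arms against each other (plot of shares within each library). miR-193a-5p made up 19.1%, 16.7% and 28.1% of the summed 5p counts of miR-193a and miR-193b in sensitive replicates 1 to 3 (exact binomial 95% bounds of 9.15% to 33.3%, 6.37% to 32.8% and 13.7% to 46.7%). In resistant replicates 1 to 3 it made up 49.2%, 58.1% and 54.2% (exact binomial 95% bounds of 40.4% to 58.1%, 48.6% to 67.2% and 47.3% to 60.9%). The shares did not overlap between the groups, although the intervals of sensitive replicate 3 and resistant replicate 1 did, and resistant replicate 3 lay between the other resistant libraries. The log2 ratio of miR-193b-5p over miR-193a-5p (0.5 counts added to each) averaged 1.85 (SD 0.484, n = 3) in sensitive and -0.22 (SD 0.257, n = 3) in resistant libraries. It was lower in resistant cells by 2.07 on the log2 scale (resistant minus sensitive -2.07, and -2.06 without resistant replicate 3; two-sided exact permutation p = 0.1, adjusted over 6 ratios p = 0.36). With 3 libraries against 3, 0.1 is the smallest p that this test can give, so none of the 6 ratios could pass. This was the 1 ratio of the 6 whose groups did not overlap.

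Arm shares of miR-193b and of miR-365a were most different in resistant replicate 3. The latter share does not describe the MIR365A hairpin alone, since both clusters can make miR-365a-3p. The 3p arm made up 94.4%, 95.02% and 90.7% of the miR-193b counts in sensitive and 90.7%, 93.9% and 77.1% in resistant replicates 1 to 3 (exact 95% interval of the last 72.9% to 81.0%). The log2 ratio of miR-193b-3p over miR-193b-5p differed by -0.87 (exact permutation p = 0.3) and by -0.25 without resistant replicate 3. miR-365a-5p made up 10.9%, 11.04% and 18.2% of its counts together with miR-365a-3p in sensitive replicates 1 to 3, against 20.9%, 19.8% and 73.7% for the resistant ones. These shares did not overlap between the groups either. Exact 95% intervals of sensitive replicate 3 (13.8% to 23.3%) and resistant replicates 1 and 2 (18.2% to 23.9% and 16.996% to 22.8%) overlapped, and that of resistant replicate 3 was 67.4% to 79.3%. miR-365a-3p over miR-193b-3p, the abundant arms, had log2 ratios of -0.14, -0.023 and 0.013 in sensitive, and -0.041, -0.29 and -2.49 in resistant replicates 1 to 3, so these arms were close to equal in all libraries but resistant replicate 3 (difference -0.89, exact permutation p = 0.2, and -0.12 without it). The remaining ratios rested on counts of 0 to 5: miR-193b-3p over miR-193a-3p differed by -0.88 (exact permutation p = 0.5), miR-365a-5p over miR-365b-5p by -0.65 (exact permutation p = 0.3) and miR-193a-3p over miR-193a-5p by -2.06 (exact permutation p = 0.2). Without resistant replicate 3 these were -0.92, -1.14 and -1.40. The intervals cover counting error only.

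**Figure D4:**
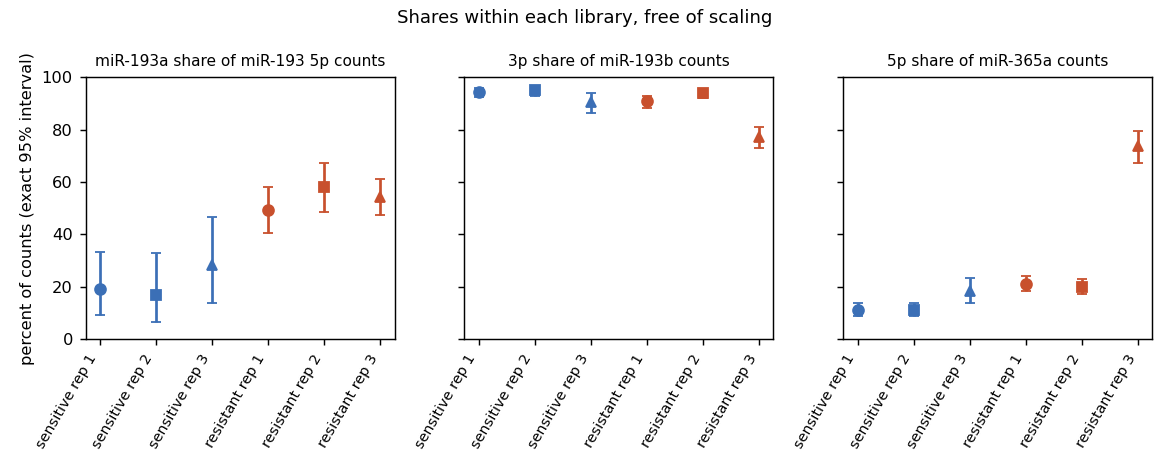
Percent of counts within each library, with exact 95% binomial intervals, for 3 shares (miR-193a of the miR-193 5p counts, 3p of miR-193b and 5p of miR-365a with miR-365a-3p), in sensitive (blue) and resistant (orange) libraries. Reads of miR-365a-3p can come from both clusters. The miR-193a share is 16.7% to 28.1% in sensitive and 49.2% to 58.1% in resistant libraries, the 5p share of miR-365a is 10.9% to 18.2% in sensitive and 19.8% to 73.7% in resistant libraries, and resistant replicate 3 is apart from all others in the second and the third panel.

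Across the 6 libraries, log2 CPM of miR-193a-5p correlated with that of miR-365a-5p at Pearson r = 0.970 (0.940 without resistant replicate 3) and with that of miR-193b-5p at 0.915 (0.778). miR-193b-3p and miR-365a-3p had r = -0.68 over the 6 libraries and 0.878 over the 5 without resistant replicate 3. These values describe libraries that share their depth and composition. Among 762 other tested miRNAs, the profiles most like that of miR-193a-5p over the 6 libraries were those of miR-331-3p, miR-933, miR-484, miR-1269a and miR-4455 (r = 0.994 to 0.999, and 0.986 to 0.997 without resistant replicate 3). For miR-193b-3p they were miR-328-3p, miR-320c, miR-1301-3p, miR-4301 and miR-3177-3p (r = 0.981 to 0.987, and 0.884 to 0.951 without it). These were picked as the highest r, which takes no account of size. Log2 fold changes of the first 5 were 0.95 to 3.66, beside 4.26 for miR-193a-5p (0.68 to 2.59, beside 2.70, without resistant replicate 3). Those of the second 5 were 1.15 to 2.22, beside 0.72 for miR-193b-3p (0.21 to 1.12, beside 0.31, without it).

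Of 16 other miRNAs known to repress KIT, MCL1 or CCND1, 14 were tested. With all libraries 1 rose and 1 fell, where 2.08% of all tested miRNAs rose and 2.08% fell. The median log2 fold change was -0.53, beside -0.11 over all tested. let-7b-5p, which is reported to repress CCND1, rose by a log2 fold change of 4.49 (edgeR adjusted p = 0.0154), and by 3.52 without resistant replicate 3 (edgeR adjusted p = 2.12e-06). miR-125b-5p, reported to repress MCL1, had a change of -4.14 (edgeR adjusted p = 0.00219), and -4.15 without that library (edgeR adjusted p = 3.31e-06). Without resistant replicate 3, 1 of the 14 rose and 5 fell, while 13.7% of all tested miRNAs rose and 14.4% fell (median -0.052, beside 0.036 over all tested). Besides miR-125b-5p, those that fell were the MCL1-directed miR-29a-3p (-0.99, edgeR adjusted p = 0.00728) and the KIT-directed miR-221-3p (-1.73, edgeR adjusted p = 0.00206), miR-222-3p (-1.80, edgeR adjusted p = 0.00657) and miR-494-3p (-0.91, edgeR adjusted p = 0.00416). miR-20a-5p, the most abundant of the list, had a log2 fold change of -0.59 (edgeR adjusted p = 0.551), and -0.092 without resistant replicate 3 (edgeR adjusted p = 0.774). At 76653 CPM in sensitive cells it was present at a level far above the 51.1 CPM of miR-193b-3p.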

How the data were processed

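The authors deposited a table of whole-number read counts per mature miRNA for 6 libraries, and its totals differ between libraries. The submitters' processing notes name GRCh38. Per the labels' protocols, NEBNext small RNA libraries were run on a NovaSeq instrument. The sources used here name no aligner, counting program or read filter, and the counts carry no molecular identifiers. Of the deposited count rows with over 50 counts, 17 fell into 8 sets of identical rows, miR-365a-3p and miR-365b-3p among them, so some reads appear to have been counted under more than 1 name.

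Counts were tested with edgeR 4.0.16 in R 4.3.3 (quasi-likelihood F test, no covariates) after filterByExpr (minimum count 10, minimum total 15) and TMM scaling, with Benjamini-Hochberg adjustment over all 768 tested miRNAs and a threshold of 0.05. Standard errors are the absolute log2 fold change over the square root of F. The test was also run on simulated counts with the same dispersion for all miRNAs and no outlying library. That run therefore does not show how the test behaves with a library like resistant replicate 3. Log2 CPM used a prior count of 2. Within-library ratios used exact permutation tests (scipy 1.17.1). Alternatives used DESeq2 1.42.0 and limma 3.58.1. RefSeq sequences matched 2367 of the 2656 names.

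The members and the lists (KIT, MCL1 or CCND1 repressors, erythroid and blood, other cell types, fragment-like annotations) were chosen with earlier results of these data known. Named were the 7 members, miRNAs sharing a seed or lying within 500 kb, the 5 miRNAs most correlated with the most abundant tested member of each cluster, and, from the repressor list, the most abundant member and those called. miR-29a-3p, miR-221-3p, miR-222-3p and miR-494-3p were named after their values without resistant replicate 3 were seen.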

Additional observations from a re-analysis of the deposited data

How the results depend on the processing

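The count of called members depended on the setting. On chromosome 17 it went from 0 to 1, miR-193a-5p, with library totals (3.52% of all tested miRNAs higher), with no filter (6.63%), with DESeq2 and with the replicate block (1.04%), and from 0 to 1 over the fits that left out 1 library (1 without resistant replicate 2, where 2.04% of all tested rose, or 3). On chromosome 16 it went from 0 to 2, miR-193b-5p and miR-365a-5p, with no filter and with DESeq2, and from 0 to 1 over the fits that left out 1 library. No member was called lower in any of the 14 alternatives, in which 0.36% to 14.4% of all tested miRNAs were called lower. RLE factors, limma-voom, a minimum mean of 10 CPM (which left miR-193a-5p and miR-193b-5p untested) and keeping 1 row per identical sequence or count row, chosen after seeing the data, called 0 members. In that order, these settings called 1.17%, 2.73%, 1.7% and 1.45% of all tested miRNAs higher. At such shares a count of 0 says little about so few members.

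miR-193a-5p kept a positive log2 fold change in its 13 alternatives (2.70 to 5.04) and passed in 6. miR-365a-5p (0.99 to 2.74) passed in 3 of 14, miR-193b-5p (0.64 to 2.997) in 2 of 13 and miR-193b-3p (0.31 to 1.20) in 0 of 14. miR-365a-3p (-0.40 to 0.21) passed in 0 of 14 and changed sign with library totals (0.094), without sensitive replicate 2 (0.078) and without resistant replicate 3 (0.21), and the cause was not tested. With 5 counts added, 2 ratios changed sign, miR-193b-3p over miR-193a-3p (0.12) and miR-365a-5p over miR-365b-5p (0.77), since their smaller member had 0 to 5 counts. miR-193b-5p over miR-193a-5p kept its sign in all 8 alternatives (-2.35 to -1.64).

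Whether replicate numbers pair the libraries was not settled. Deviations of same-numbered libraries from their group means correlated at -0.062, 0.256 and 0.130. Sensitive replicates 2 and 3 each correlated best with the resistant library of their own number. With resistant replicates 1 and 3, sensitive replicate 2 gave 0.200 and -0.238. With resistant replicates 1 and 2, sensitive replicate 3 gave -0.125 each. Sensitive replicate 1 correlated best with resistant replicate 3 (0.106). Deviations from a group mean sum to 0 for each miRNA, so these correlations depend on each other and cannot decide the pairing. The replicate block gave miR-193a-5p a log2 fold change of 3.66 (edgeR adjusted p = 0.0462) and 23 calls over all miRNAs, against 32 without it. Depth limits miR-193a-3p and miR-365b-5p most, with 0 to 5 counts in a library.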
